A study of Mus musculus with 9 samples.

Results

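H3K4me1, the monomethylation of lysine 4 of histone H3, was mapped in primary oviductal muscle cells by ChIC-Seq, and its signal was described gene by gene. There were 3 H3K4me1 samples, set against 3 IgG samples that served as controls, out of 9 samples in the series. The other 3 samples were for H3K27ac. All cells came from WT mice aged 8 to 12 weeks that had been mated and were on D2 of pregnancy, and the labels name no drug or gene deletion. The oviducts were digested, passed through a cell strainer and plated for a few hours before 50000 cells were taken per library, and no sort for muscle cells is named. In ChIC-Seq, protein A joined to MNase binds the antibody on the mark and cuts the DNA nearby, and the freed fragments are sequenced. Nothing in the labels says whether replicates came from separate animals, so the spread given here may be technical.

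H3K4me1 is deposited mainly by the methyltransferases KMT2C and KMT2D. It marks enhancers, both those in use and those that are primed, and it flanks active promoters, where the start site itself carries trimethylation instead. Broad blocks of the mark over introns are typical of genes that hold many enhancers in a cell type. In the oviduct, the smooth muscle layer moves the embryo toward the uterus on the days around D2, and its contraction depends on actin, myosin, steroid receptors and prostaglandins.

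The H3K4me1 libraries held 41891318, 78891920 and 64063996 fragments in replicates 1, 2 and 3, against IgG controls of 3136732 fragments for replicates 1 and 2 and 3110985 for replicate 3. The authors called 105720 peaks on the pooled replicates against all 3 IgG libraries. A peak was kept when a peak of each of the 3 replicate lists overlapped it by at least 1 bp. This kept 46257 peaks, or 43.8% of the list, and 134 Mb, or 72.7% of its covered bp. Kept peaks were longer, with a median of 2067 bp against 640 bp for the rest. The rule itself favours length, since a long peak more easily meets a replicate peak by 1 bp. Their pileup, the mean number of fragments over a peak after scaling to the IgG depth, had a median of 4.59, which was 6.62 times the genome mean. Their median fold enrichment over the local background was 1.99, a ratio that is lowered by the 1 added to pileup and background, and the −log10 p-value reached 1.3 in 83.9% of them against 42.0% of the peaks not kept. The pooled call holds the fragments of the same replicates, so this contrast is not independent of the rule. In replicate lists 1, 2 and 3, only 19600 of 128684, 16510 of 100804 and 19637 of 103296 peaks reached 1.3. The 3 replicates contributed similar amounts, with 95.6, 104 and 98.0 Mb of replicate peaks meeting a kept peak, where each had to meet every kept peak.

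For each of 21755 protein-coding genes, the window was the gene body plus 10 kb on either side, and covered length was the number of bp in it under kept peaks. In all, 12040 genes, 55.3%, had at least 1 kept peak in the window. At least 20% of the window was covered in 2901 genes, 13.3%, and at least 50% in 269. The median gene had 1.24 kb, or 2.11% of its window, under kept peaks. Values of a gene in single H3K4me1 replicates, here and below, count replicate peaks that meet a kept peak, unless all peaks are named. They are thus not independent of the rule, which asks each replicate to meet every kept peak. Counted so, single replicates, with shorter peaks, put 1544, 1693 and 1554 genes at the 20% threshold. Across genes, the share of the window under all peaks of a replicate list, kept or not, correlated between replicates with a Spearman coefficient of 0.834 to 0.925, where genes are not independent of each other. The highest was between replicates 1 and 2, which were called against the same IgG library. The pairs with replicate 3 gave 0.834 and 0.854.

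The sequences below come from the kept peaks of 5 genes that lead one of the rankings or a gene list described further on. They show marked intervals beside the letters bound by factors that act at enhancers of muscle and mesenchymal cells. For each gene, the kept peak of highest pileup was taken whose central 300 bp lay outside exons and held TGANTCA, the letters bound by AP-1 factors, GGAATG, the letters bound by TEAD factors, or a CArG box, the letters bound by SRF. They were thus picked for holding these letters. All are from GRCm38, plus strand, 5′ to 3′, and all 5 lie in introns. Capitals mark a match on either strand.
Zbtb20, chr16:43562547-43562846: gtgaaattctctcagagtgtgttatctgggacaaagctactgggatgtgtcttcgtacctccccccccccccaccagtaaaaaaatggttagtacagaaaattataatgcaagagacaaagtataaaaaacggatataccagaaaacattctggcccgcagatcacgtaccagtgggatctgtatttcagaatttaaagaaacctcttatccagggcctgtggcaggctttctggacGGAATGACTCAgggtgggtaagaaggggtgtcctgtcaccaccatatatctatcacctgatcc
Akap13, chr7:75613706-75614005: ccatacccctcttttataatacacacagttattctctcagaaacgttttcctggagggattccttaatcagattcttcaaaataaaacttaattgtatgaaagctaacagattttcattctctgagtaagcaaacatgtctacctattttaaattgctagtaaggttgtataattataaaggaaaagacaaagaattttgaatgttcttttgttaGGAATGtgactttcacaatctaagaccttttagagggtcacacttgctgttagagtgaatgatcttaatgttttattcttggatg
Mbnl1, chr3:60485153-60485452: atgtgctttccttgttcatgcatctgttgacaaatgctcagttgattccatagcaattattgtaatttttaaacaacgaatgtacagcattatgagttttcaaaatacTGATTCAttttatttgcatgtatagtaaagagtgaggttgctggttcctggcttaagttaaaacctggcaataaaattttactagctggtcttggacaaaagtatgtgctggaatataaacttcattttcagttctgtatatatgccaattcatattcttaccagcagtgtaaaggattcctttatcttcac
Col3a1, chr1:45318475-45318774: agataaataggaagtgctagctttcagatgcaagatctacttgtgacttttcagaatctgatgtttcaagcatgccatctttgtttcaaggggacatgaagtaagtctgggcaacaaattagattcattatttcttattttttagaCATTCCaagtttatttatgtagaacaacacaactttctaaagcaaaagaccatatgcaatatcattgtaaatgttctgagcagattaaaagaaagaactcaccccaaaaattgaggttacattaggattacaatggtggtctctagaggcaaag
Pgr, chr9:8937951-8938250: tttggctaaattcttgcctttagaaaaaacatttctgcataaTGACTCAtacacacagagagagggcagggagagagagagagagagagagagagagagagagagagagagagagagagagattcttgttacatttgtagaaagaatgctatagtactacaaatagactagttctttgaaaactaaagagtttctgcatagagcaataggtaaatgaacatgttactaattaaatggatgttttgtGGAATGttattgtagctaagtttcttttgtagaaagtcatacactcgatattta

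In the Zbtb20 stretch, GGAATG and TGANTCA overlapped in a single run. The Pgr stretch held both sets of letters apart from each other, and the Akap13 and Col3a1 stretches held GGAATG alone. The Mbnl1 stretch held TGANTCA alone, with T at the centre, and so no AP-1 site. Over all kept peaks on the autosomes and X, 11.9% of central 300 bp windows held TGANTCA, compared with 11.7% of the pooled peaks that were not kept and 8.74% of windows placed every 100 kb along the genome. For GGAATG the shares were 16.9%, 16.7% and 16.0%, and for the CArG box 1.73%, 1.76% and 1.70%. TGANTCA, with any letter at its centre, was thus more frequent in H3K4me1 peaks of either kind than along the genome. The shares of the other motifs differed between these sets by less than 1 percentage point. The windows also differed in base composition, with 42.8% G and C in kept peaks, 44.9% in peaks not kept and 41.8% along the genome. A match is a description of letters and its part in the mark was not tested.

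Ranked by covered length, the leading models included Gm20388, Zbtb20, Fgfr2, Rad51b, Akap13, Lpp, Celf2, Pde4d, Tcf4, Palld, Vps13b, Tcf12, Bnc2 and Pard3, 14 of the 15 that were ranked. The leader and the third of these owed their place to the gene model. Gm20388, on chromosome 8, is a readthrough model with a window of 4455 kb that holds 73 other protein-coding genes, and kept peaks covered 447 kb of it, or 10.0%. The GENCODE model of Fgfr2, a receptor for fibroblast growth factors, spans a window of 2981 kb with 30 other genes inside. With the RefSeq model, whose window is 124 kb, Fgfr2 had 0 kept peaks, so its 273 kb of covered length lay outside the gene as RefSeq draws it.

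**Figure D1:**
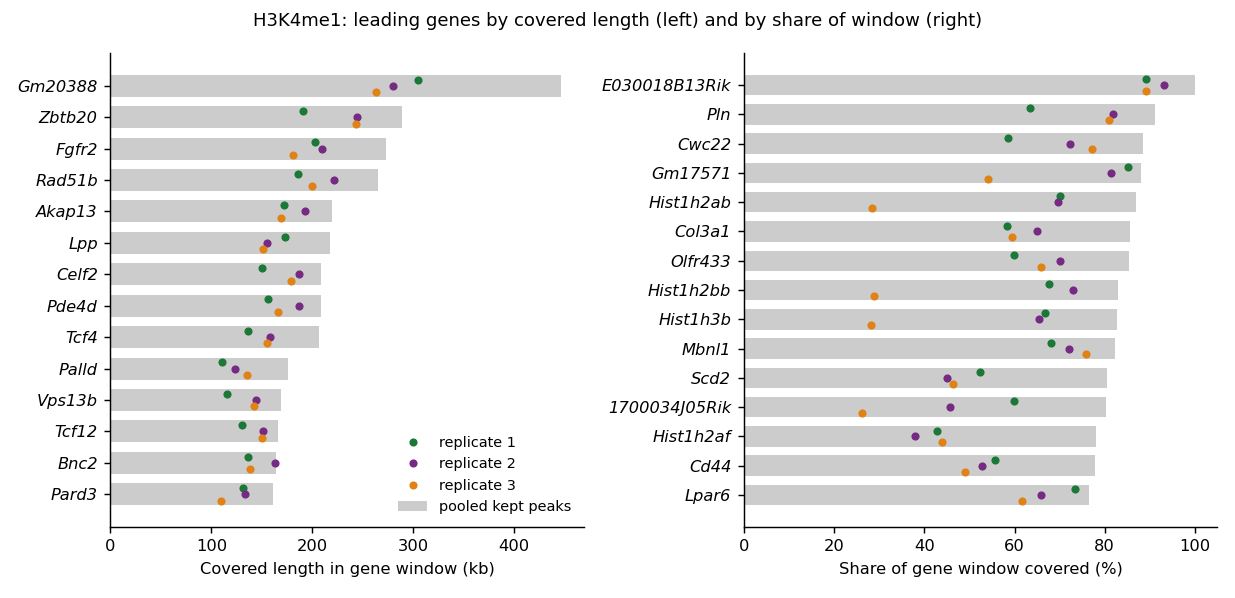
Genes leading by covered length (left, kb, 14 of the 15) and by share of the window covered (right, %). Grey bars give the kept peaks of the pooled call, and points give the peaks of each H3K4me1 replicate that meet a kept peak. Replicate points lie below the bars, and replicate 3 stands well below replicates 1 and 2 for Hist1h2ab, Hist1h2bb and Hist1h3b.

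Zbtb20, a zinc finger repressor, came second by covered length. Its body lies at chr16:42875881-43642602, and 57 kept peaks covered 289 kb of its window, with 191, 245 and 243 kb in replicates 1, 2 and 3 (mean 226 ± 30.8 kb, SD, n = 3). Replicate 1 was the lowest there, but each replicate placed Zbtb20 among its 3 leading genes. Rad51b, a gene of homologous recombination with a long intron-rich body at chr12:79297282-79814690, had 265 kb covered and 186, 222 and 199 kb in the replicates.

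Akap13, a kinase anchor protein that also acts as a guanine nucleotide exchange factor, at chr7:75455534-75754609, combined a long covered length with dense coverage. Kept peaks took up 219 kb, or 68.7% of its window, and the replicates covered 172, 193 and 169 kb (mean 178 ± 13.1 kb, SD, n = 3). Lpp, a LIM protein of focal adhesions that is abundant in smooth muscle, had 218 kb covered and 173, 155 and 151 kb in the replicates. Palld, the actin-bundling protein palladin, had 176 kb, with 111, 124 and 135 kb in the replicates. Pard3, a polarity scaffold, had 161 kb.

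Tcf4 and Tcf12, both E proteins that pair with tissue-specific basic helix-loop-helix factors, had 207 and 166 kb covered, which was 56.6% and 57.5% of their windows. Bnc2, a zinc finger protein of mesenchymal cells, had 164 kb covered and 136, 163 and 138 kb in the replicates. Among the remaining genes, Celf2, an RNA-binding splicing regulator, and Pde4d, which degrades cAMP, each had 209 kb covered, but the window of Pde4d was 1524 kb long and only 13.7% of it was covered, against 21.1% for Celf2. Vps13b, a lipid transfer protein of the Golgi, had 169 kb. The last gene inside the list, Pard3, was followed by Ldlrad4 with 152 kb.

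The sum of pileup times length, which weighs each covered bp by its signal, gave nearly the same order. Across genes it correlated with covered length with a Spearman coefficient of 0.997, and 11 of the 15 leading genes were shared. Gm20388 led with 3065 fragment kb and Fgfr2 followed with 1594. Rad51b reached 1458, above Zbtb20 with 1431, because the mean pileup over its kept peaks was 5.51 against 4.95. Akap13 came next with 1202, with 298, 359 and 322 in the replicates, which are scaled to their own smaller IgG depth. The genes that entered by this measure were Fndc3b, an endoplasmic reticulum protein active in adipogenesis, with 932, Arid1b, the subunit that defines the BAF form of SWI/SNF, with 899, Dnm3, a dynamin, with 854, and Rere, a transcriptional corepressor, with 851. Foxp1 lay just outside with 849.7. The mean pileup over covered bp varied little between genes, with a median of 5.38 among the 12040 genes and a 95th percentile of 7.43. The highest were Gm10800 and Gm10801 on chromosome 2, both at 426 and named after their values were seen.

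Long windows had more covered length. The Spearman coefficient across genes was 0.479 between window length and covered length, and 0.298 between window length and the share covered. The 500 genes with the most covered length held 25.9% of all kept bp in windows that made up 5.53% of the genome, and the 15 leading genes held 2.49% in 0.576%. Of the 15 leading genes in the pooled call, 13 were among the 15 leading genes of each replicate. By sum of pileup times length, 10, 11 and 10 were shared in replicates 1, 2 and 3. Since these ranks use replicate peaks that meet a kept peak, part of this agreement is set by the rule. By the mean of the 3 replicate lists with all their peaks, 14 of the 15 remained by covered length. By sum of pileup times length 11 did.

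**Figure D2:**
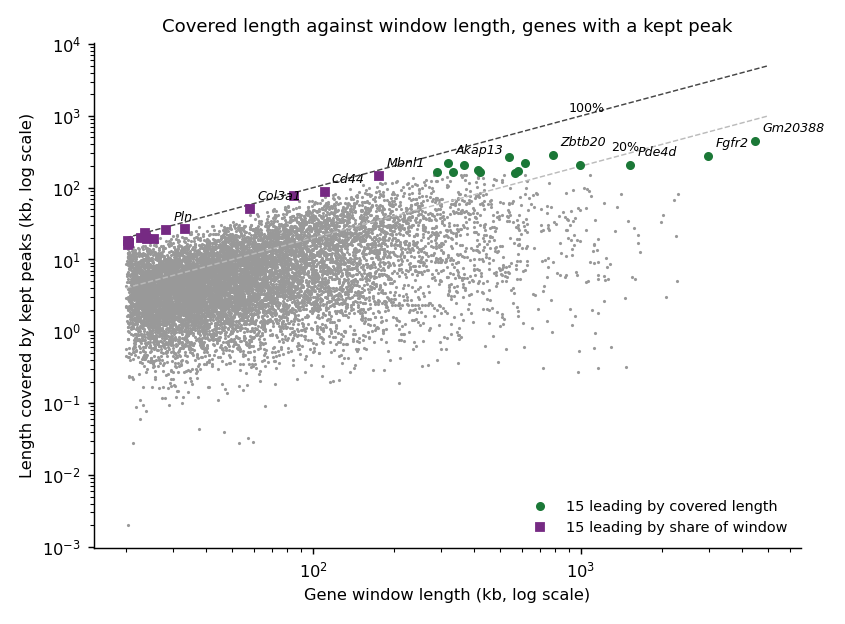
Length covered by kept peaks (kb, log scale) against window length (kb, log scale) for the 12040 protein-coding genes with a kept peak, 1 grey point per gene. Dashed lines mark 100% and 20% of the window, green circles the 15 genes leading by covered length and purple squares the 15 leading by share of the window; Gm20388 and Fgfr2 lie below the 20% line at the right, while Akap13 and Mbnl1 lie near the 100% line.

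Ranked by the share of the window covered, none of the 15 leading genes was shared with the ranking by covered length. Most had short windows. Such a window can overlap that of a longer gene, and its peaks then count for both. The share covered thus describes the stretch, and not the named gene alone. E030018B13Rik, on chromosome 7, lay wholly inside a peak that covered 100% of its 23.7 kb window, and the replicates covered 89.1%, 93.2% and 89.1%. Pln encodes phospholamban, which restrains the calcium pump of the sarcoplasmic reticulum in muscle. Its window was covered to 91.2%, with 63.3%, 81.9% and 80.9% in the replicates. Replicate 1 was the lowest for Pln as for Zbtb20.

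Col3a1, the fibrillar collagen of distensible tissues, was covered to 85.6% at chr1:45311538-45349706, with 58.4%, 65.0% and 59.3% in the replicates (mean 60.9 ± 3.55%, SD, n = 3). Mbnl1, a splicing regulator of muscle, was the longest of these genes that was covered nearly throughout. Kept peaks covered 146 kb, 82.2% of its window, and the replicates covered 68.0%, 72.1% and 75.8%. Neighbouring peaks of 53.2 and 53.5 kb made up most of it, and replicates covered between 76.0% and 99.4% of either. Cd44, the hyaluronan receptor, was covered to 77.8%, and Lpar6, a receptor for lysophosphatidic acid, to 76.5%. The stearoyl desaturase Scd2 reached 80.4%, with 52.4%, 45.0% and 46.4% in the replicates.

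The splicing factor gene Cwc22 had the highest fold enrichment of these genes. It was covered to 88.5%, with a fold enrichment of 3.46 where the median gene with a kept peak had 2.02. Hist1h2ab, Hist1h2bb, Hist1h3b and Hist1h2af are histone genes of the cluster on chromosome 13. The first 3 have windows that overlap each other by 14.975 to 19.3 kb and are covered by the same peaks. In replicate 3, 28.4% of the Hist1h2ab window was covered, against 70.2% and 69.7% in replicates 1 and 2. Gm17571, Olfr433 and 1700034J05Rik made up the remainder, with 88.2%, 85.5% and 80.2%. Hist1h3c, at 76.1%, was the next gene below the list. By this measure 8, 10 and 5 of the 15 leading genes were shared with replicates 1, 2 and 3, fewer than by covered length.

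The longest kept peaks were 63.9 kb over Map4k4, a kinase of cell migration, and 62.3 kb over Susd6, followed by 62.1 kb in a gene-free stretch of chromosome 6, 116 kb from Klf14. In each of these the replicates covered between 73.0% and 88.8% of the peak. These 3 peaks were described after their values were seen. In all, 1324 kept peaks were at least 10 kb long, 2.86% of the peaks with 14.8% of the kept bp, and 175 were at least 20 kb long.

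Within gene models, H3K4me1 was densest just downstream of the start. Over all protein-coding genes, the bp covered by kept peaks rose from 4.37% in the bin that begins 10 kb upstream to 14.97% in the last kb before the start. Coverage was 16.5% in the first kb of the gene and 24.0% in the next, and it then fell to 11.1% in the bin at 10 kb. In the 2901 genes with at least 20% of the window covered, the last kb before the start had 42.8%, the first kb of the gene 39.7%, and the bin at 2 kb 70.3%. Coverage in the first kb was thus lower than on either side, and it was still 47.1% at 10 kb. These genes were chosen by their coverage, so the height of their curve is given as a description.

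**Figure D3:**
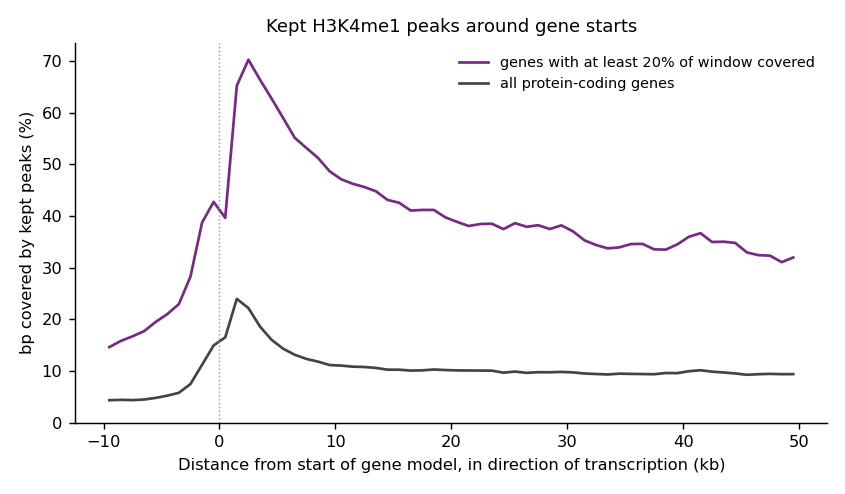
Percent of bp covered by kept H3K4me1 peaks in 1 kb bins from 10 kb upstream to 50 kb downstream of the start of the gene model, for all 21755 protein-coding genes and for the 2901 with at least 20% of the window covered. The upper curve dips to 39.7% in the first kb of the gene and peaks at 70.3% in the bin at 2 kb, and bins inside the gene use only genes long enough to reach them.

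Of all kept bp, 78.7% lay in gene windows, which made up 48.6% of the genome. Introns held 64.9% of kept bp against 35.4% of the genome, exons 6.24% against 4.01%, and the flanks 7.57% against 9.24%. The X chromosome was sparsely covered. Kept peaks covered 1.11% of X, against 4.43% to 6.33% of each autosome, and 2.00% of the X genes had at least 20% of the window covered. With all replicate peaks, kept or not, X was covered to 1.39%, 1.53% and 1.39% in replicates 1, 2 and 3, where the least covered autosome had 4.51%, 4.24% and 4.12%. The H3K27ac lists of the same cells covered 2.203%, 1.19% and 1.03% of X and at least 4.55%, 3.15% and 2.86% of each autosome, so the difference was present in all 6 lists.

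In H3K4me1 and H3K27ac replicate lists, taken whole, the share of covered bp in introns was 60.4%, 61.3% and 61.6% for H3K4me1 and 50.5%, 54.1% and 54.3% for H3K27ac. The groups did not overlap, and the difference was 8.14 percentage points (61.1 ± 0.625% against 53.0 ± 2.17%, SD, n = 3 each; exact permutation test, two-sided, p = 0.1, adjusted p = 0.15 over 3 measures). With 3 lists a mark, 0.1 is the smallest p this test can give. The 500 leading genes of each list held 23.3 ± 0.661% of its covered bp for H3K4me1 and 19.8 ± 0.661% for H3K27ac, a difference of 3.55 points (exact permutation p = 0.1, adjusted p = 0.15, n = 3 each). The share in gene windows was 75.1 ± 0.163% against 74.5 ± 4.49% (exact permutation p = 1, n = 3 each). H3K27ac replicate 1, the list called against another IgG library than any H3K4me1 list, was the lowest of its group at 69.3%, and without it the difference turned to −2.03 points. Within lists called against the same IgG library, H3K4me1 minus H3K27ac was 6.72 and 7.28 points for introns, 3.22 and 3.31 points for the 500 leading genes and −2.02 and −1.98 points for gene windows. When peaks with a −log10 p-value under 1.3 were dropped from all 6 lists, the differences over 3 lists a mark became 17.2 points for introns, 12.4 for the 500 leading genes and −6.25 for gene windows. Of the kept H3K4me1 peaks, 66.1%, 69.5% and 63.1% were overlapped by a peak of H3K27ac replicates 1, 2 and 3, which covered 39.8%, 39.2% and 33.8% of the kept bp.

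Genes of the smooth muscle contractile apparatus carried the mark unevenly. Of 16 genes in the list, 15 had a kept peak and 6 had at least 20% of the window covered, and the median was 10.4%, beside 13.3% of genes at that threshold and a median of 2.11% over all genes. In single replicates 3, 2 and 3 of the 16 reached it, with 50 kb flanks 3 did, at a threshold of 30% 2 did, and none did when each replicate had to cover at least 50% of a pooled peak. Of all 21755 genes, 1544, 1693 and 1554 reached 20% in single replicates, 1567 with 50 kb flanks and 1076 under the 50% overlap rule. At 30% there were 1369. Synpo2, an actin-binding protein of Z-discs, was the highest at 44.3%, with 22.8%, 34.9% and 37.3% in the replicates. Cald1, caldesmon, followed with 32.8% and almost equal replicates of 24.7%, 24.5% and 24.3%.

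Acta2, smooth muscle alpha actin, was covered to 29.1%, with 13.9%, 13.8% and 22.2% in the replicates, so that replicate 3 was the highest. Its 3 kept peaks lay around the start, upstream and beyond the end of the gene. Tpm1, a tropomyosin, had 26.4%, Srf, the factor that binds CArG boxes, 26.1%, and Des, the intermediate filament desmin, 21.5%. Other members had less of the mark. Myh11, smooth muscle myosin heavy chain, had a single kept peak over 0.869% of its window, and Cnn1, calponin, had none. Myocd, the coactivator of SRF, had 3.31%.

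**Figure D4:**
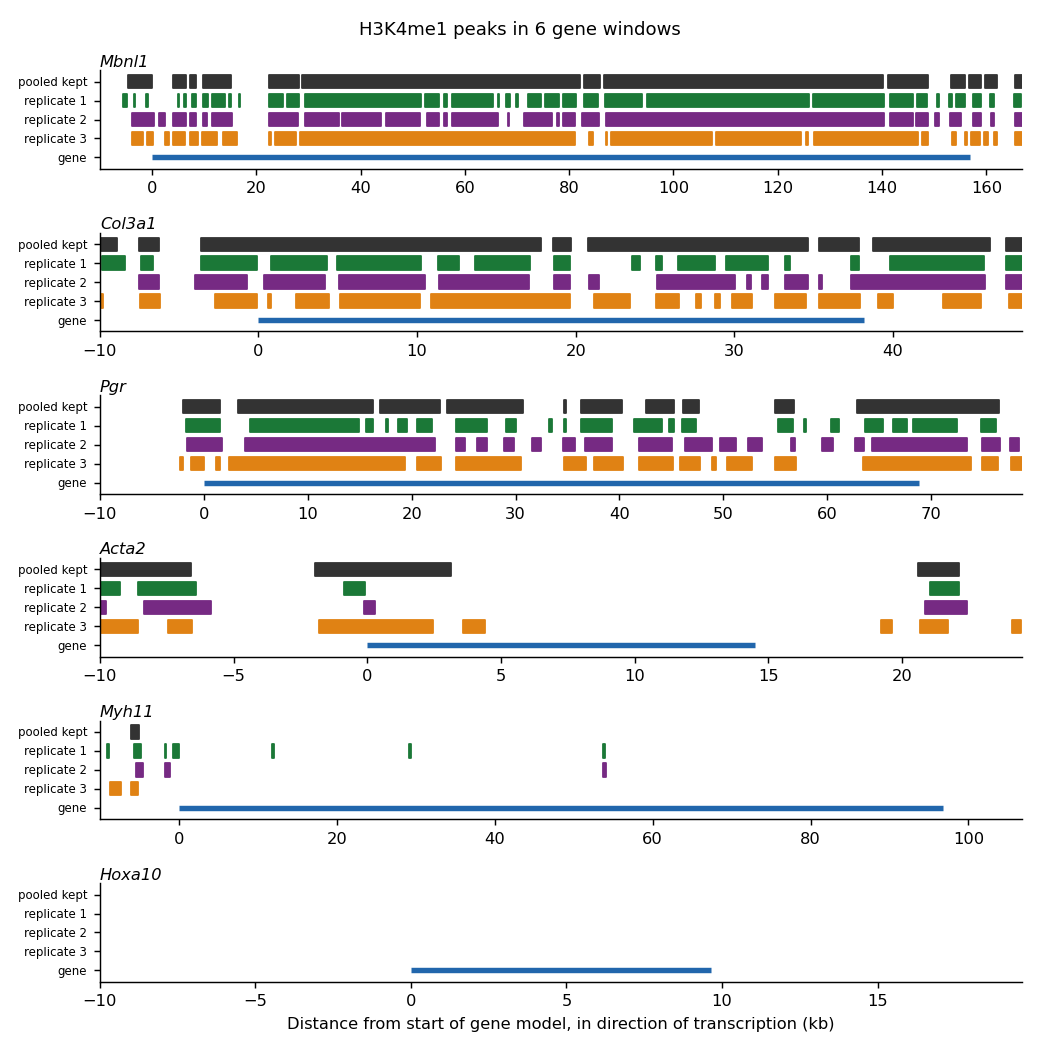
Kept peaks of the pooled call (black) and all peaks of each replicate (green, purple, orange) in 6 gene windows, drawn as distance from the start of the gene model (kb) in the direction of transcription, with the gene in blue and 10 kb shown on either side. Mbnl1, Col3a1 and Pgr are covered over most of their windows, Acta2 is covered around its start and in both flanks, the kept peak of Myh11 lies in its upstream flank, and Hoxa10 has no peak in any list drawn.

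Mesenchymal transcription factors had a median of 36.1%, beside 2.11% over all genes, and 9 of 16 had at least 20% of the window covered, beside 13.3% of all genes. The list's median was 21.7%, 17.3% and 22.1% in the replicates, beside 1.21%, 1.23% and 1.15% over all genes. Meis1, a homeodomain factor, led with 51.1% and replicates of 35.2%, 30.5% and 40.8%. Hand2, a basic helix-loop-helix factor of the progesterone response in reproductive stroma, had 49.7%. Prrx1, Twist2, Wt1, Tcf21, Nr2f2 and Emx2 lay between 34.4% and 48.0%, whereas Twist1 had 17.1% and Tbx18 3.92%. The HOX genes of this list went the other way. Hoxa9, Hoxa10 and Hoxa11, which pattern the reproductive tract, had 0 kept peaks, although H3K27ac peaks covered 66.3%, 83.3% and 68.1% of their windows on average over the 3 H3K27ac replicates.

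The steroid receptor list held 7 of 14 genes at the threshold, beside 13.3% of all genes, with a median of 19.4%. Its median window was 156 kb, against 37.4 kb over all genes. Pgr, the progesterone receptor at chr9:8899833-8968611, was the highest at 60.5%. Its 10 kept peaks covered 53.7 kb, and the replicates covered 43.8%, 51.9% and 58.0% of the window (mean 51.2 ± 7.16%, SD, n = 3). Esr1, estrogen receptor alpha, had 41 kept peaks over 141 kb, 34.1% of its window, with 24.2%, 27.5% and 30.2% in the replicates. Esr2, estrogen receptor beta, had 0 kept peaks in a window of 76.8 kb. Among the other receptors, Nr3c1, the glucocorticoid receptor, had 33.1% and Nr3c2, the mineralocorticoid receptor, 2.93%. Ncoa3, a coactivator, had 47.9%.

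Of 22 prostaglandin pathway genes, 6 reached 20%, against 13.3% of all genes, and the median was 9.09%. In single replicates 3, 2 and 3 did, under the 50% overlap rule and with 50 kb flanks 2 did, and 1 of 22 reached 30%, as did 1369 of the 21755 genes. For all genes the replicate counts were 1544, 1693 and 1554, with 1076 under the 50% rule and 1567 with 50 kb flanks. Pla2g4a, the phospholipase that frees arachidonic acid, led with 42.2%, and its replicates covered 37.3%, 34.2% and 40.7%. The inducible cyclooxygenase Ptgs2 had 21.8%, with 17.8%, 12.6% and 15.8% in the replicates, and the constitutive Ptgs1 had 0.975%. Among receptors, Ptger4 had 28.7%, Ptger1 24.8% and Ptger2 15.3%, while Ptgfr, the receptor of PGF2α, had 6.74% and Ptger3 1.07%. Hpgd, which inactivates prostaglandins, had 24.2%. The terminal synthases Ptges2 and Ptgds had 0 kept peaks, and Ptges3 had 25.9%.

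Of the extracellular matrix genes, 14 of 20 reached the threshold, beside 13.3% of all genes, and the median was 27.5%. In single replicates 8, 8 and 9 did, where 1544, 1693 and 1554 of all 21755 genes did. At 30% there were 8, and 1369 of all genes. Col3a1 led, followed by Col5a2 at 57.8%, with 50.5%, 50.5% and 46.2% in the replicates, and the small proteoglycan Dcn at 51.7%. Col5a2 lies next to Col3a1 on chromosome 1. Collagen IV genes Col4a1 and Col4a2 had 40.2% and 28.8%, and the collagen I genes Col1a2 and Col1a1 had 36.0% and 26.3%. The lowest was Eln, elastin, at 3.29%, and Fn1, fibronectin, had 9.03%.

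Cell adhesion and actin cytoskeleton genes reached the threshold in 14 of 18, beside 13.3% of all genes, with a median of 32.3%. In each replicate 10 of 18 did, where 1544, 1693 and 1554 of all 21755 genes did. Itgb1, the beta 1 integrin, had 49.6%, and its replicates of 49.1%, 45.1% and 47.8% lay close together. Vcl, vinculin, had 47.6%, and Actn4, a crosslinking actinin, had 46.1%. Flna, filamin A, on the X chromosome, had 0 kept peaks, although H3K27ac covered 22.2% of its window on average.

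TGF-beta and BMP signaling genes reached the threshold in 13 of 20, beside 13.3% of all genes, with a median of 30.0%. In single replicates 8, 11 and 11 did, where 1544, 1693 and 1554 of all 21755 genes did. With 50 kb flanks 8 did, and 1567 of all genes. Ski, a corepressor of SMAD proteins, had 73.3%, with 54.6%, 51.2% and 53.1% in the replicates, while H3K27ac covered 17.4% on average. Smad7, an inhibitory SMAD, had 57.5%, Skil, the relative of Ski, had 47.1%, and Smad6, another inhibitory SMAD, had 21.5%. Of the receptors, Tgfbr3 had 59.5%, Bmpr1a 49.5%, Tgfbr2 44.7% and Tgfbr1 31.2%. Of the ligands, Tgfb1 had 17.5%, Tgfb2 5.65% and Tgfb3 0 kept peaks.

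Of the AP-1 and YAP-TEAD genes, 9 of 16 reached 20%, beside 13.3% of all genes, with a median of 24.1%. In single replicates 5, 4 and 4 did, with 50 kb flanks 5 did, and 4 reached 30%. The counts over all 21755 genes were 1544, 1693 and 1554 in single replicates, 1567 with 50 kb flanks and 1369 at 30%. Junb, a subunit of AP-1, had 57.7%, with 36.9%, 39.6% and 32.8% in the replicates, but Jun had 9.81% and Fos 17.9%. Yap1, the coactivator of the Hippo pathway, had 39.5%, its partner Tead1 37.4%, and its target Ccn2 38.5%, while another target, Ankrd1, had 0 kept peaks. Of the SWI/SNF subunits 5 of 16 reached the threshold, beside 13.3% of all genes, with a median of 14.4%. In each replicate 4 did, and with 50 kb flanks 2 did, beside the same counts over all genes. Arid1b and Arid1a, the alternative ARID subunits of BAF, had 40.4% and 39.7%, and the replicates of Arid1b were 23.0%, 22.7% and 22.4%. Smarcd2 had 32.7%, the catalytic subunit Smarca4 5.15% and Smarcc2 0 kept peaks.

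Few markers of other cell types reached the threshold. In the epithelial list 1 of 16 genes did, and 6 had a kept peak, against 55.3% of all genes. The gene at the threshold was Krt8, a keratin, at 35.6%, with 11.7%, 15.3% and 34.2% in the replicates, so that replicate 3 lay above the others. Epcam, Cdh1 and Foxj1 were among the genes with 0 kept peaks, as were 44.7% of all genes. In the blood cell list 0 of 16 reached it and 6 had a kept peak, and Ptprc, CD45, was the highest at 17.7%. The count in the blood cell list became 1 without replicate 2, 2 without replicate 3 and 3 with all pooled peaks. In the same settings 3071, 3284 and 4467 of all 21755 genes reached the threshold. In the endothelial list 0 of 14 reached it, but 10 had a kept peak, a larger share than the 55.3% of all genes, and Tek was the highest at 11.9%. Among liver and neuron genes 0 of 16 did and 6 had a kept peak, and Ttr was the highest at 14.7%. With gene bodies alone, without flanks, 1 liver and neuron gene, 1 blood cell gene and 0 epithelial genes reached the threshold. The count over all 21755 genes was then 3656. The medians of the epithelial, blood and liver and neuron lists were 0%, and that of the endothelial list was 2.01%, beside 2.11% over all genes. By the same measure 9 of the 13 lists held a larger share of genes at the threshold than the 13.3% of all genes, and these were the 9 lists that are not markers of other cell types. When each replicate had to cover at least 50% of a pooled peak for it to be kept, 1076 of all genes passed the threshold, with 8 matrix, 8 TGF-beta and BMP, 7 adhesion, 5 mesenchymal, 4 steroid receptor, 2 prostaglandin, 2 AP-1 and YAP-TEAD, 1 SWI/SNF, 0 smooth muscle and 0 epithelial genes. Nothing was tested here, since the lists were chosen with earlier results known, and the window lengths of the lists differed, with medians from 27.2 kb for blood cell genes to 156 kb for steroid receptors and cofactors.

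**Figure D5:**
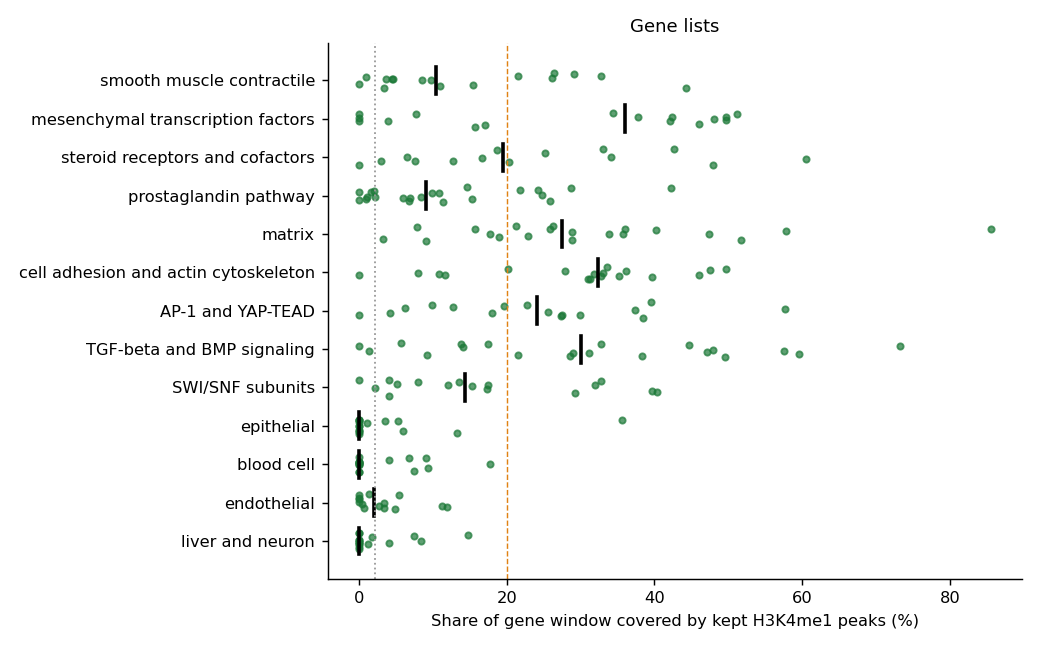
Share of the gene window covered by kept H3K4me1 peaks (%) for each gene of 13 lists, 1 point per gene, with the list median as a black bar; points are spread vertically for clarity. The dotted line marks the median of all protein-coding genes, 2.11%, and the dashed line the 20% threshold, which no blood cell, endothelial or liver and neuron gene reaches with peaks kept in all 3 replicates.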

How the data were processed

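ChIC-Seq peak lists of H3K4me1 (3 replicates and a pooled call) and H3K27ac (3 replicates) were used. Per the labels, the authors used cutadapt, Bowtie2 and MACS2 with GRCm38.p5. The filters before peak calling are not given in the sources used here. Per the file headers, the authors called broad, paired-end peaks with MACS 2.2.7.1 at p-value cutoffs of 0.05 (strong) and 0.1 (weak), with the larger library scaled to the smaller. In the deposited lists the pileup is a coverage signal in fragments at IgG depth, the fold enrichment a ratio with 1 added to pileup and background, and the p-value is on the −log10 scale. IgG depth limits all 3. IgG libraries had no values of their own. Pooled H3K27ac was not used.

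Gene models were GENCODE M21 (GRCm38), and 0 peaks ran past a chromosome end. Genes on Y were left out, as were 9 kept peaks off the assembled chromosomes. Covered bp and pileup times bp were summed per window in Python 3.11.15 (numpy 2.4.6, pandas 2.3.3, scipy 1.17.1). Where gene windows overlap, a peak counts for each gene. Genes named singly were the 15 leading by each measure, and in each list the 3 highest, the lowest and those with 0 kept peaks. Other list members, and peaks or genes so described, were named after their values were seen. Genes that met this rule but are not reported here stay in all counts. Marks were compared by an exact permutation test over 20 assignments. Interval sums were tested on simulated data, and 0 of 6000 differed from a count base by base. The members and lists were chosen with earlier results of these data known.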

Additional observations from a re-analysis of the deposited data

How the results depend on the processing

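Requiring each replicate to cover at least 50% of a pooled peak left 18738 kept peaks, 6893 genes with a kept peak and 1076 with at least 20% of the window covered. Of the 15 genes leading by sum of pileup times length 8 then remained, and 12.4% of central windows held TGANTCA. Taking all pooled peaks gave 105720 peaks and 4467 genes at the 20% threshold. That threshold was passed by 1567 genes with 50 kb flanks, and 6173 and 1369 genes passed thresholds of 10% and 30%. Under the 50% rule 10 of the 15 genes leading by covered length remained. Leaving out 1 H3K4me1 replicate moved the kept peaks to between 51342 and 59661 and the genes at 20% to between 3071 and 3284, and 14 or 15 leading genes remained by either measure. Only the overlap with that replicate was dropped. The pooled call still held its fragments, so these counts could not fall. With RefSeq gene models, an alternative chosen after seeing the data, 13 of the 15 remained by each measure.

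Lists with a larger share at the threshold than all genes numbered 8 or 9 of 13 in the alternatives run. The list that fell below all genes was smooth muscle under the 50% rule, with 0 of 16, and the prostaglandin pathway at a threshold of 30%, with 1 of 22. Between marks, the difference in the share inside gene windows changed sign when peaks below a −log10 p-value of 1.3 were dropped, to −6.25 points, with the 50000 peaks of highest fold enrichment, to −1.14 points, and when 1 list was left out it ran from −2.03 to 1.90 points. The differences for introns and for the 500 leading genes kept their sign in each alternative, but with peaks below that p-value dropped they grew to 17.2 and 12.4 points. With the replicate number as a block, introns differed by 8.14 points, leading genes by 3.55 and windows by 0.559 (exact paired permutation p = 0.25, 0.25 and 1, where 0.25 is the smallest of 8 sign changes, n = 3). Deviations of same-numbered lists correlated across genes at −0.0766, 0.377 and 0.507, so the numbers were not taken to pair the samples, and H3K4me1 replicate 1 correlated best, at 0.387, with H3K27ac replicate 2, which shares its IgG library. The cause was not tested. Of 267 alternative values in all, 3 changed sign. Among counts and motif shares, 31 counts for single lists and 10 other values moved by more than 1.5 times or, for a motif, beyond counting error. The IgG libraries, 13.4 to 25.2 times smaller than the H3K4me1 libraries of the replicate calls, limit how far weak peaks can be told from background.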

Other observations

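The HOX clusters differed in the mark. Taken from the outermost gene on one side to that on the other, the Hoxd cluster on chromosome 2 held 8 kept peaks, and H3K4me1 replicate lists, kept or not, covered 15.3%, 20.1% and 18.3% of it. The Hoxa cluster held 1 kept peak and was covered to 7.32%, 5.64% and 5.19%. The Hoxb and Hoxc clusters held 0 kept peaks, and no replicate covered more than 3.16% of either. H3K27ac replicate lists covered 33.8%, 33.4% and 29.0% of Hoxd, 25.05%, 30.8% and 24.8% of Hoxa and 8.65% to 12.3% of Hoxb and Hoxc. Within Hoxd the H3K4me1 coverage was highest at Hoxd4, 51.0% of its window, and Hoxd8, 43.2%, while Hoxd11, Hoxd12 and Hoxd13 had 0 kept peaks and H3K27ac means of 57.0%, 30.7% and 8.61%. These clusters were examined after their values were seen.

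Gene families in clusters differed in coverage, beside 55.3% of all genes with a kept peak and 13.3% at the 20% threshold. Of 54 Hist1 histone genes 44 had at least 20% of the window covered, with overlapping windows that count the same peaks more than once. Of 1135 olfactory receptor genes 43 had a kept peak and 3 had at least 20%, the highest being Olfr433. Of 331 vomeronasal receptor genes 2 had a kept peak and 0 had at least 20%.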
